A study of Mus musculus with 12 samples.

Results

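The thrombospondins Thbs1, Thbs2 and Thbs3, tenascin-C (Tnc), fibronectin (Fn1), Sparc and the long fibulins Fbln1 and Fbln2 were described in primary mouse aortic smooth muscle cells. These 8 genes were picked by symbol from the 55822 gene identifiers of the count table, each matching 1 identifier, and all 8 passed the filter on low counts. The 12 libraries fall into 3 groups of 4. IFNγ/LPS CM cells received medium conditioned by bone marrow-derived macrophages after priming with interferon gamma (20 ng/mL, overnight), then lipopolysaccharide (100 ng/mL, 4 hours) and a wash. Naive CM cells received medium of unstimulated macrophages. Regular medium cells were kept in growth medium. The serum level of both conditioned media was 0.3%, with M-CSF, a macrophage growth factor, at 10 ng/mL, and they were collected after 24 hours and left on the smooth muscle cells for 24 hours. The protocol gives 48 hours of starvation in 0.3% serum before the conditioned media. It does not say whether the regular medium cells were starved or what their medium held, so naive CM against regular medium may differ in more than the macrophage products. Strain, sex, age and the number of animals are not given, and separate titles do not say whether libraries came from separate animals or cultures, so p-values measure only the spread between these libraries.

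Matricellular proteins are secreted into the matrix, where they act on cell adhesion and signalling more than as structural scaffold. Thrombospondin-1 binds CD36, CD47 and integrins and can activate latent TGF-β. Tenascin-C loosens adhesion to fibronectin and appears in injured arteries, fibronectin is the fibrillar protein on which collagens and fibulins are laid, SPARC binds collagen, and fibulins link basement membrane, elastic fibres and fibronectin.

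Library depth was 28097496 to 61493375 estimated counts. Levels are given as CPM, counts per 1000000 of the TMM-scaled library total, and differences as log2 fold changes of the medium named first over the one named after it, tested with edgeR's quasi-likelihood test with adjustment over 16140 genes and a threshold of 0.05. The columns name the conditioned media M0 and M1, read as naive and IFNγ/LPS macrophages, and every direction rests on that reading. Of the defining smooth muscle markers, Acta2 stood at 77.3 ± 3.60 CPM in IFNγ/LPS CM, 220.2 ± 8.05 CPM in naive CM and 280.1 ± 29.9 CPM in regular medium (SD, n = 4 each), while Myh11 and Cnn1 stayed under 1 CPM in all 12 libraries. Tagln, also a defining marker, stood at 0.550 ± 0.0315, 10.8 ± 1.78 and 31.6 ± 12.4 CPM in the same order of groups. The whole list of 12 smooth muscle markers summed to 257 to 278 CPM in IFNγ/LPS CM, 795 to 889 CPM in naive CM and 1180 to 1310 CPM in regular medium. Of 11 tested, 9 were lower and none higher in IFNγ/LPS CM against naive CM. In that comparison 35.8% of all genes tested were lower and 36.1% higher, shares that stand beside each list count in this paragraph. The macrophage list of 15 genes summed to 901 to 1010 CPM in IFNγ/LPS CM, 33.5 to 37.0 CPM in naive CM and 34.0 to 35.8 CPM in regular medium. Of 7 tested, Mpeg1, Csf1r, Cd68, Lyz2 and Cd14 rose and Lcp1 and Mertk fell in IFNγ/LPS CM against naive CM. Most of the first sum was Mpeg1 at 874 ± 50.6 CPM. Ptprc had 1 count, Adgre1 2 counts and Csf1r 656 counts over the 4 libraries of IFNγ/LPS CM. The adventitial fibroblast list of 12 genes summed to 6830 to 7510 CPM in IFNγ/LPS CM, 2080 to 2250 CPM in naive CM and 2040 to 2330 CPM in regular medium. Against naive CM, 3 of its 9 tested genes rose and 5 fell (median log2 fold change -1.22), so the sum and the count point different ways. Of its defining genes, Pdgfra rose (log2 fold change 2.30), to 63.9 ± 4.56 CPM in IFNγ/LPS CM, a small part of the sum. Dpt and Pi16 fell (-5.23 and -3.10). The other genes that rose were Ly6a (3.47) and Dcn (1.55), and Cd34, Col14a1 and Scara5 also fell. The 10 endothelial markers summed to at most 3.55 CPM in any library. The part of these shifts in the results below was not tested, and fewer cells of a type cannot be told apart from less RNA per cell.

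In IFNγ/LPS CM against naive CM, 6 of the 8 genes were lower and Tnc and Fn1 were higher, although Fn1 turned to -0.015 (log2) when libraries were scaled by their totals alone. The falls were 3.35-fold for Thbs1, 2.63-fold for Fbln1, 2.30-fold for Sparc, 1.82-fold for Thbs2, 1.74-fold for Fbln2 and 1.67-fold for Thbs3, and the rises 1.90-fold for Tnc and 1.29-fold for Fn1. Of all genes tested 71.9% passed, 35.8% lower and 36.1% higher, so that 8 of 8 passing is not far from what a typical gene did, and 6 of 8 fell where 35.8% of all genes did. With library totals as scaling 78.4% of all genes passed, 58.1% lower and 20.3% higher. The median log2 fold change of the 8 genes was -0.83, against 0.004 over all genes. All 8 had libraries that did not overlap between the groups, as did 69.5% of genes. The plot of levels by library shows these steps.

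**Figure D1:**
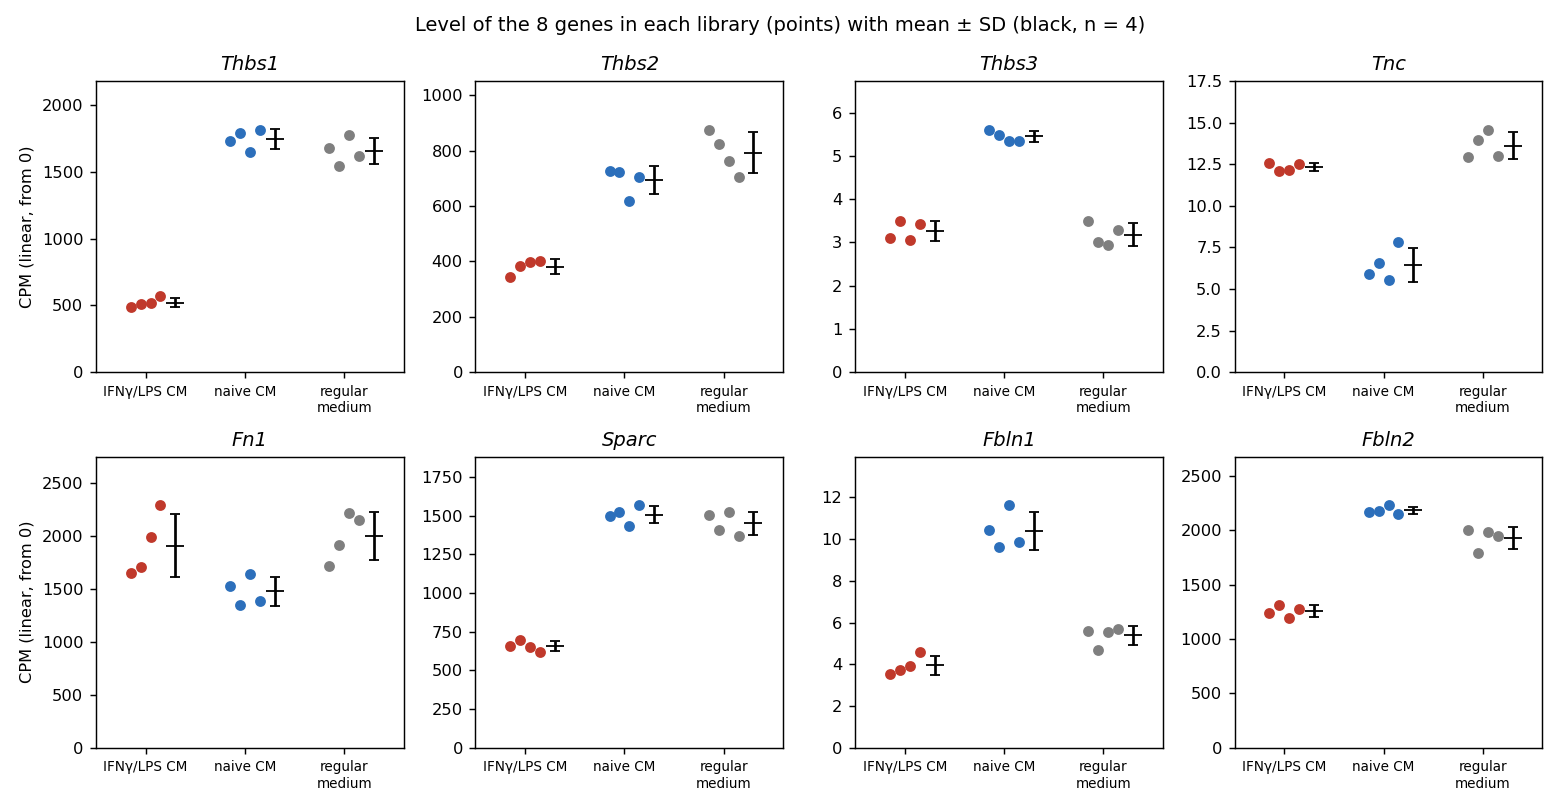
Level in CPM (linear axes from 0) of the 8 genes in each library, for IFNγ/LPS CM, naive CM and regular medium from left to right; points are libraries and black bars the mean ± SD of 4. Thbs1, Thbs2, Sparc, Fbln1 and Fbln2 are lowest in IFNγ/LPS CM, Tnc is lowest in naive CM, and Thbs3 and Fbln1 are highest in naive CM.

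Summed, the 8 genes took 0.397 ± 0.0292% of all counts in IFNγ/LPS CM, 0.834 ± 0.0090% in naive CM and 0.858 ± 0.0286% in regular medium (SD, n = 4 each). These shares use library totals without TMM scaling, so their step between IFNγ/LPS CM and the other media is larger than in CPM. The genes differ widely in level. Per kilobase of exon, Sparc led in naive CM with 398 ± 14.9 CPM per kb, followed by Fbln2 with 343 ± 5.37, Thbs1 with 288 ± 12.2, Fn1 with 126 ± 11.7 and Thbs2 with 99.1 ± 7.25. Fbln1, Thbs3 and Tnc stood far below, at 2.38 ± 0.204, 1.13 ± 0.0255 and 0.831 ± 0.132 CPM per kb, and no neighbours in this order overlapped in naive CM. In IFNγ/LPS CM the order was Fbln2 at 198 ± 8.12, Sparc at 173 ± 8.39, Fn1 at 163 ± 25.3, Thbs1 at 85.8 ± 5.60 and Thbs2 at 54.5 ± 3.71 CPM per kb. Fn1 overlapped with both Sparc and Fbln2 there, its highest library standing at 196 CPM per kb and the lowest of Fbln2 at 188. Below them came Tnc at 1.59 ± 0.0322, Fbln1 at 0.904 ± 0.105 and Thbs3 at 0.677 ± 0.0474. In regular medium the order was Sparc, Fbln2, Thbs1, Fn1, Thbs2, Tnc, Fbln1 and Thbs3, and Fbln2 overlapped with Thbs1. Tnc thus ranked the 6th in IFNγ/LPS CM, the 8th in naive CM and the 6th in regular medium. Lengths are exon unions of GENCODE M21, and with the longest transcript instead Sparc and Fbln2 changed places in IFNγ/LPS CM.

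Thbs1, a trimeric thrombospondin that inhibits angiogenesis and is on chromosome 2 at 118111876 to 118127133 (GRCm38, GENCODE M21), had 487, 513, 516 and 568 CPM in IFNγ/LPS CM, 1729, 1789, 1650 and 1818 CPM in naive CM and 1682, 1546, 1776 and 1621 CPM in regular medium. The 4 IFNγ/LPS CM libraries lay far below the other 8, which overlapped. IFNγ/LPS CM was lower than naive CM by a log2 fold change of -1.74 (SE 0.054, edgeR adjusted p = 3.24e-16) and lower than regular medium by -1.67 (SE 0.054, adjusted p = 6.19e-16). Naive CM did not pass against regular medium (1.05-fold, 95% interval 0.978 to 1.14, adjusted p = 0.279).

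Thbs2, the other trimeric thrombospondin, whose loss in mice disturbs collagen fibrils, is on chromosome 17 at 14665500 to 14694235, minus strand. It had 344, 384, 396 and 401 CPM in IFNγ/LPS CM, 726, 725, 619 and 705 CPM in naive CM and 877, 825, 764 and 706 CPM in regular medium. The IFNγ/LPS CM libraries were below all others. The log2 fold change was -0.86 against naive CM (SE 0.071, edgeR adjusted p = 1.89e-08) and -1.06 against regular medium (SE 0.071, adjusted p = 1.65e-09). Naive CM and regular medium overlapped; the difference of -0.19 passed narrowly (adjusted p = 0.0453), and the call was lost in 15 of 20 alternatives, with adjusted p up to 0.124.

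Thbs3, a pentameric thrombospondin best known from cartilage and bone, is on chromosome 3 at 89215180 to 89226837. Only 89 to 339 counts per library lay behind its level, which was 3.09, 3.50, 3.05 and 3.42 CPM in IFNγ/LPS CM, 5.62, 5.49, 5.36 and 5.36 CPM in naive CM and 3.50, 3.01, 2.93 and 3.28 CPM in regular medium. The naive CM libraries stood above all others, and the other groups overlapped. IFNγ/LPS CM was lower than naive CM by -0.74 (SE 0.102, edgeR adjusted p = 2.53e-06), and naive CM was higher than regular medium by 0.77 (SE 0.101, adjusted p = 7.69e-06). IFNγ/LPS CM did not pass against regular medium (1.02-fold, 95% interval 0.879 to 1.19), but with library totals as scaling it was lower (-0.35, adjusted p = 0.00533).

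The gene next to Thbs3 on the opposite strand, Mtx1, which encodes a mitochondrial import protein, shares 318 bp of annotated exon with it, from 2 of its 18 transcripts. The longest of its other transcripts starts 750 bp before Thbs3. Mtx1 stood at 15.4 ± 0.620 CPM in IFNγ/LPS CM, 15.7 ± 0.922 CPM in naive CM and 14.6 ± 0.490 CPM in regular medium (SD, n = 4 each) and did not pass in any comparison (edgeR adjusted p = 0.77, 0.202 and 0.236). The library kit keeps the strand; whether the counting used it is not stated.

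The proportions of the 3 thrombospondins differed between the media. Of their summed counts Thbs1 made up 57.5 ± 1.01% in IFNγ/LPS CM, 71.4 ± 0.971% in naive CM and 67.5 ± 2.55% in regular medium (SD, n = 4 each). Thbs2 made up 42.1 ± 1.05%, 28.4 ± 1.01% and 32.3 ± 2.53% in the same order of groups, and Thbs3 at most 0.361 ± 0.0241%, in IFNγ/LPS CM. The ratio of Thbs1 to Thbs2 counts within a library does not depend on scaling between libraries. It was 1.30 to 1.42 in IFNγ/LPS CM, 2.38 to 2.66 in naive CM and 1.87 to 2.33 in regular medium, with no overlap between any groups. The difference in mean log2 ratio was -0.88 for IFNγ/LPS CM against naive CM, 0.27 for naive CM against regular medium and -0.61 for IFNγ/LPS CM against regular medium. Each had an exact two-sided permutation p of 0.0286, the smallest that 4 against 4 libraries can give (adjusted p = 0.0429 over 9 tests of 3 ratios). These calls lie close to the threshold of 0.05. Without naive CM replicate 1, 2 or 3 the first had an adjusted p of 0.0514, as had the third without any 1 of the regular medium replicates. Before adjustment both stayed at an exact permutation p of 0.0286, the smallest possible, so their adjusted p moved only with the other tests among the 9. The second lost its call without any 1 of its 8 libraries (exact permutation p = 0.0286 to 0.0857, adjusted p = 0.0514 to 0.11).

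Tnc, on chromosome 4 at 63959785 to 64047015, minus strand, moved the other way. It had 12.6, 12.1, 12.1 and 12.5 CPM in IFNγ/LPS CM, 5.88, 6.58, 5.52 and 7.85 CPM in naive CM and 12.9, 14.0, 14.6 and 13.0 CPM in regular medium. Naive CM was the low group, and the IFNγ/LPS CM libraries lay just under those of regular medium. Tnc was higher in IFNγ/LPS CM than in naive CM by a log2 fold change of 0.93 (SE 0.092, edgeR adjusted p = 2.57e-08) and lower in naive CM than in regular medium by -1.07 (SE 0.091, adjusted p = 3.85e-08). The rise against naive CM shrank to 0.54 with library totals as scaling (edgeR adjusted p = 2.95e-05). IFNγ/LPS CM against regular medium did not pass although the libraries did not overlap (0.907-fold, 95% interval 0.797 to 1.03, adjusted p = 0.162). With library totals that difference became -0.53 (adjusted p = 2.62e-05).

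Fn1, on chromosome 1 at 71585520 to 71653200, minus strand, was the member with the most counts in IFNγ/LPS CM. It had 1648, 1706, 1993 and 2290 CPM in IFNγ/LPS CM, 1532, 1345, 1643 and 1387 CPM in naive CM and 1718, 1914, 2215 and 2154 CPM in regular medium. The highest naive CM library and the lowest of IFNγ/LPS CM were nearly level, and the spread within IFNγ/LPS CM was the widest of the 8 genes there (SD 15.5% of the mean). The rise against naive CM was 0.37 (SE 0.118, edgeR adjusted p = 0.0155), and naive CM was below regular medium by -0.44 (SE 0.118, adjusted p = 0.0152). With library totals the first became -0.015 (adjusted p = 0.911), so its direction depends on the scaling. IFNγ/LPS CM did not pass against regular medium (0.955-fold, 95% interval 0.796 to 1.15), and with library totals it was lower (-0.45, adjusted p = 0.00394). Splice forms of fibronectin and tenascin-C cannot be read from values per gene.

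**Figure D2:**
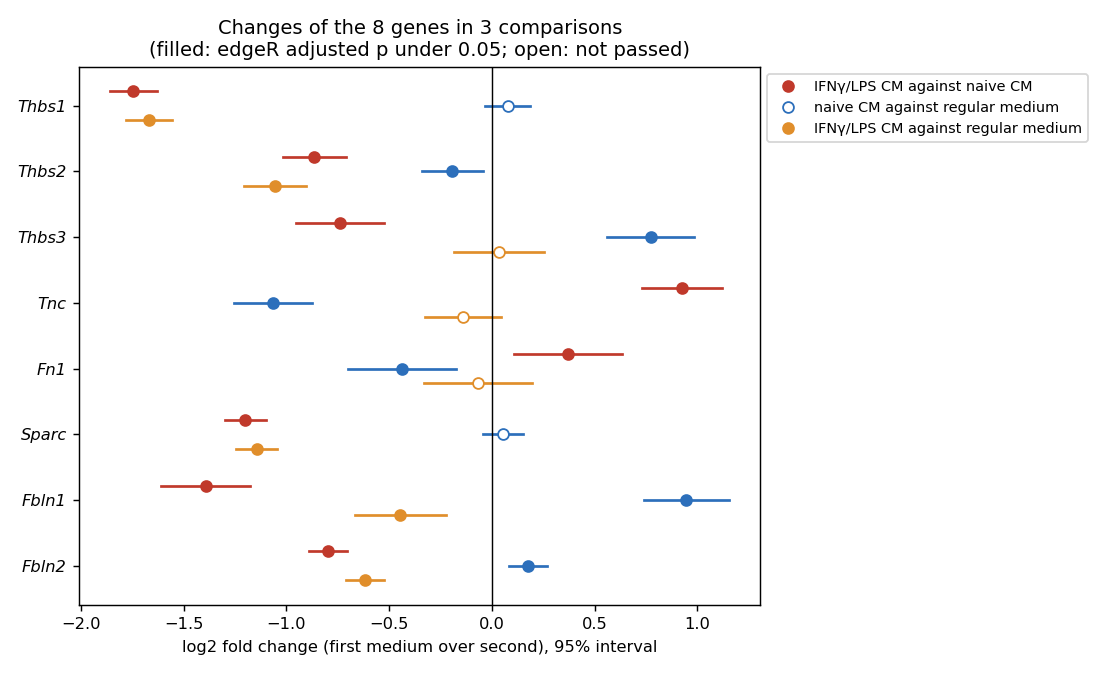
Log2 fold change (points) with 95% interval (lines) of the 8 genes in the 3 comparisons, first medium over second; filled points passed an edgeR adjusted p of 0.05 and open points did not. Thbs1, Thbs2, Sparc, Fbln1 and Fbln2 are left of 0 in both comparisons of IFNγ/LPS CM. Tnc and Fn1 are right of 0 in IFNγ/LPS CM against naive CM, where Fn1 moves to -0.015 with library totals as scaling.

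The ratio of Tnc to Fn1 counts within a library was 0.00547 to 0.00764 in IFNγ/LPS CM, 0.00336 to 0.00566 in naive CM and 0.00605 to 0.00754 in regular medium. It was lower in naive CM than in regular medium (difference in mean log2 ratio -0.65, exact two-sided permutation p = 0.0286, adjusted p = 0.0429), a call that was lost without any 1 of the 8 libraries other than naive CM replicate 4 (exact permutation, adjusted p up to 0.0735). IFNγ/LPS CM against naive CM overlapped and did not pass (0.58, exact permutation p = 0.0571, adjusted p = 0.0734; 0.71 and adjusted p = 0.0429 without naive CM replicate 4), nor did IFNγ/LPS CM against regular medium (-0.07, exact permutation p = 0.60).

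Sparc, which encodes a collagen-binding glycoprotein also called osteonectin, is on chromosome 11 at 55394500 to 55423183, minus strand. It had 656, 697, 650 and 620 CPM in IFNγ/LPS CM, 1500, 1524, 1433 and 1567 CPM in naive CM and 1502, 1407, 1523 and 1366 CPM in regular medium. All 4 IFNγ/LPS CM libraries lay below the other 8, which overlapped. The log2 fold change was -1.20 against naive CM (SE 0.048, edgeR adjusted p = 1.85e-14) and -1.14 against regular medium (SE 0.047, adjusted p = 3.85e-14). Naive CM against regular medium did not pass (1.04-fold, 95% interval 0.971 to 1.11).

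Fbln1 and Fbln2 encode the 2 long fibulins, calcium-binding proteins with rows of EGF-like repeats, found on chromosome 15 at 85205949 to 85286535 and on chromosome 6 at 91212455 to 91272540. Fbln1 had 3.55, 3.73, 3.91 and 4.60 CPM in IFNγ/LPS CM, 10.4, 9.61, 11.6 and 9.88 CPM in naive CM and 5.62, 4.71, 5.54 and 5.68 CPM in regular medium. The 3 groups were apart from each other, with naive CM on top. Against naive CM, Fbln1 fell in IFNγ/LPS CM by a log2 fold change of -1.39 (SE 0.104, edgeR adjusted p = 3.56e-10), and it rose in naive CM against regular medium by 0.95 (SE 0.099, adjusted p = 5.66e-07). IFNγ/LPS CM was lower than regular medium by -0.45 (SE 0.105, adjusted p = 8.80e-04). Behind Fbln1 stood 129 to 594 counts per library.

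Fbln2 had 1240, 1318, 1197 and 1278 CPM in IFNγ/LPS CM, 2166, 2183, 2232 and 2154 CPM in naive CM and 2006, 1789, 1988 and 1945 CPM in regular medium. The groups again did not overlap, although naive CM and regular medium lay close. Fbln2 fell in IFNγ/LPS CM by -0.80 against naive CM (SE 0.044, edgeR adjusted p = 3.74e-12) and by -0.62 against regular medium (SE 0.044, adjusted p = 1.87e-10), and naive CM was above regular medium by 0.18 (SE 0.044, adjusted p = 0.00393).

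The fibulins did not move in proportion. Fbln2 had 278 to 353 counts for each count of Fbln1 in IFNγ/LPS CM, 192 to 227 in naive CM and 342 to 380 in regular medium. The mean log2 ratio of Fbln2 to Fbln1 was higher in IFNγ/LPS CM than in naive CM by 0.60 and lower in naive CM than in regular medium by -0.77 (exact two-sided permutation p = 0.0286 each, adjusted p = 0.0429). The adjusted p became 0.0514 for the first without naive CM replicate 1, 2 or 3, and for the second without any 1 of its 8 libraries other than naive CM replicate 4. IFNγ/LPS CM against regular medium overlapped and did not pass (-0.17, exact permutation p = 0.143, adjusted p = 0.161).

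**Figure D3:**
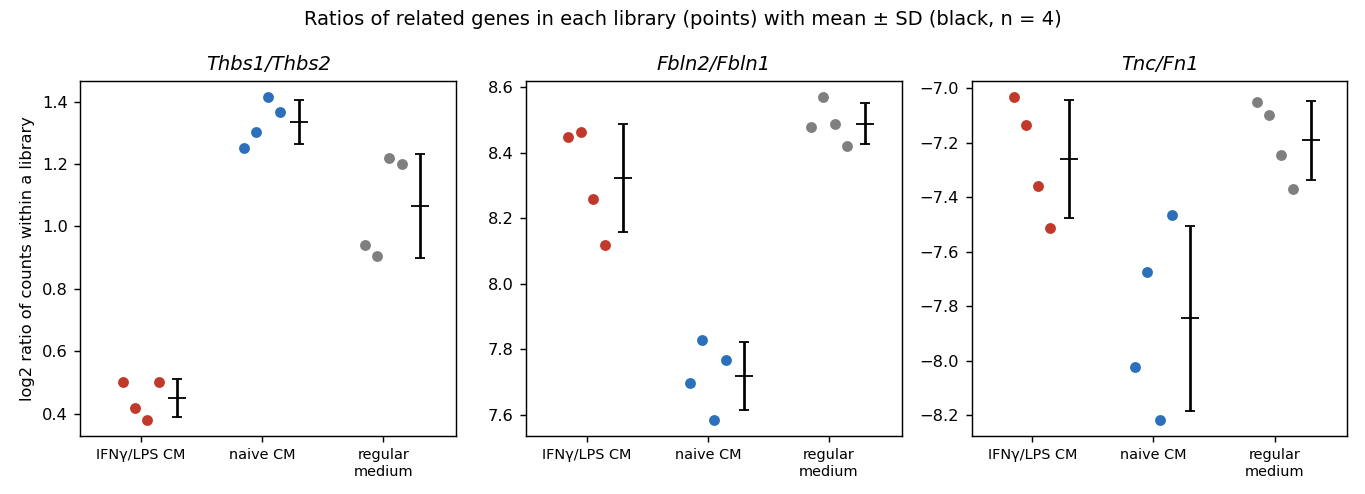
Log2 ratio of counts within each library (points) with mean ± SD (black, n = 4) for Thbs1/Thbs2, Fbln2/Fbln1 and Tnc/Fn1 in IFNγ/LPS CM, naive CM and regular medium; the axes do not start at 0. The 3 groups are apart in Thbs1/Thbs2, naive CM is apart from both others in Fbln2/Fbln1, and in Tnc/Fn1 naive CM is apart from regular medium.

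Across the 3 comparisons, naive CM against regular medium called 6 of the 8 genes, Fbln1, Thbs3 and Fbln2 higher and Tnc, Fn1 and Thbs2 lower, where 34.7% of all genes passed, 18.3% higher and 16.4% lower. Its libraries did not overlap in 5 of the 8 genes, against 32.7% of all genes. IFNγ/LPS CM against regular medium called 5 lower (Thbs1, Sparc, Thbs2, Fbln2 and Fbln1) and none higher, where 71.8% of all genes passed, 36.4% lower and 35.4% higher. Groups did not overlap in 6 of the 8 there, against 65.2% of genes. With library totals as scaling all 8 were called lower in that comparison, where 79.8% of all genes passed, 59.5% lower and 20.3% higher. Each pair of comparisons shares the libraries of 1 medium, so their values are not independent.

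Promoters of 6 of the 8 genes were matched by symbol in RefSeq (GRCm38.p6), each from 250 bases before to 50 after the start site. The RefSeq start site lies 3103 bases from that of the GENCODE gene for Sparc, 309 for Fbln2 and 27 for Thbs2. It is the same for Thbs3, Tnc and Fbln1. They are shown for Thbs2, which fell in IFNγ/LPS CM, Thbs3, which was highest in naive CM and which Mtx1 overlaps, Tnc, which was lowest in naive CM, and Fbln2, the more abundant long fibulin. They lie at chr17:14694213-14694512 (minus strand), chr3:89214930-89215229 (plus), chr4:64046966-64047265 (minus) and chr6:91212514-91212813 (plus). Capitals mark matches, on either strand and without overlap between motifs, to a TATA box (TATAAA), a GC box (GGGCGG) or a CCAAT box (CCAAT).
Thbs2: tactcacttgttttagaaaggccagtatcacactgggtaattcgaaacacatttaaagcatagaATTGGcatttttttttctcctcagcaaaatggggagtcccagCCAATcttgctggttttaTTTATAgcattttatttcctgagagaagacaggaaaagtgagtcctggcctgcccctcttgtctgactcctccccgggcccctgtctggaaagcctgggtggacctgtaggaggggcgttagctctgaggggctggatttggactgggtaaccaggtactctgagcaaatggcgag
Thbs3: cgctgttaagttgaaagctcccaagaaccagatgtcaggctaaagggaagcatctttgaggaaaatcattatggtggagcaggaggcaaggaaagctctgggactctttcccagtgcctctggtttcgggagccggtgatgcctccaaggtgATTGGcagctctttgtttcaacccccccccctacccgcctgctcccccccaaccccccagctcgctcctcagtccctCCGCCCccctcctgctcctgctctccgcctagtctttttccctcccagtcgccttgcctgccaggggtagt
Tnc: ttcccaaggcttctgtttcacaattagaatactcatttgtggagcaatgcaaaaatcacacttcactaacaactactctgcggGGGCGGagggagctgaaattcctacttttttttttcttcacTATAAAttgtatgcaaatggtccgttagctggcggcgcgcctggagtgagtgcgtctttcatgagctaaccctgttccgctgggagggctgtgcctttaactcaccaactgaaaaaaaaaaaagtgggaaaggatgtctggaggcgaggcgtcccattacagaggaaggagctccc
Fbln2: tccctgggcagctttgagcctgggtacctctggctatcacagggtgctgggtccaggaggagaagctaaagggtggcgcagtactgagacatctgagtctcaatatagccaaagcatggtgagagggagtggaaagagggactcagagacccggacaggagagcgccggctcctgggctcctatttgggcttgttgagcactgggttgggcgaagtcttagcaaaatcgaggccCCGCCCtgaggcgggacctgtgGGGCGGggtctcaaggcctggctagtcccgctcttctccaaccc
The TATA box letters were found in Tnc as TATAAA and in Thbs2 only on the opposite strand, as TTTATA. Both matches span bases -126 to -121 relative to the start site. On either strand these letters stand in 14.2% of 27025 promoters of the same length. GC box letters were found in Thbs3, Tnc and Fbln2 (35.9% of promoters) and CCAAT letters in Thbs2 and Thbs3 (37.9%). The letters of the interferon elements ISRE (GAAA repeated after 2 bases of any kind, 3.49% of promoters) and GAS (TTCNNNGAA, 8.47%) were in none of the 6 windows. The same held for NF-κB (GGG and, after 2 bases of any kind, TTTCC, 1.62%), AP-1 (TGANTCA, 7.93%), TEAD (GGAATG, 14.6%), SMAD (GTCTAGAC, 0.211%) and the CArG box (1.57%).

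Around the 8 genes, other matricellular and fibulin genes fell more often than they rose in IFNγ/LPS CM against naive CM. Of 29 listed, 19 were tested; 4 rose, 12 fell and 3 missed the threshold (the median log2 fold change was -0.93; with library totals 15 lower and 4 higher). Of all genes 35.8% were lower and 36.1% higher (median 0.004), and with library totals 58.1% lower and 20.3% higher (median -0.38). Hmcn1, which encodes hemicentin-1, a giant fibulin relative, stood at 8.52 ± 0.968 CPM in IFNγ/LPS CM and 219.1 ± 21.6 CPM in naive CM (25.7-fold lower). Ccn2, connective tissue growth factor, stood at 83.6 ± 9.53 and 844 ± 44.2 CPM in IFNγ/LPS CM and naive CM (10.1-fold lower), and Smoc1, a relative of Sparc, at 106 ± 6.90 and 430 ± 18.9 CPM (4.06-fold lower). Fstl1, another Sparc relative, rose 2.31-fold, with 2780 ± 5.13 CPM in IFNγ/LPS CM and 1204 ± 57.6 CPM in naive CM. Ecm1, a secreted matrix protein, rose 1.80-fold, and the short fibulin Efemp2, or fibulin-4, rose 1.40-fold. With library totals as scaling the log2 fold changes of these 3 rises shrank. They became 0.82 for Fstl1, 0.46 for Ecm1 and only 0.10 for Efemp2 (edgeR adjusted p = 0.0294 for Efemp2).

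Genes for receptors of the 8 proteins were split. Of 21 tested, 11 rose, 8 fell and 2 missed the threshold (median 0.29), while scaling by library totals gave 8 rises and 10 falls (median -0.10). Among all genes tested 36.1% rose and 35.8% fell (median 0.004), and with library totals 20.3% rose and 58.1% fell (median -0.38). Sdc4, a heparan sulfate proteoglycan that binds fibronectin, rose 9.29-fold, with 1994 ± 94.3 CPM in IFNγ/LPS CM and 214.6 ± 3.02 CPM in naive CM. Cd47, a thrombospondin-1 receptor, rose 3.55-fold, with 315 ± 38.1 CPM in IFNγ/LPS CM and 88.8 ± 9.59 CPM in naive CM, and Itga9, whose integrin binds tenascin-C, rose 2.27-fold. Cd36, another thrombospondin receptor, stood at 0.437 ± 0.0822 CPM (62 counts over the 4 libraries) in IFNγ/LPS CM and 5.83 ± 0.586 CPM in naive CM. Itga8, whose integrin binds fibronectin and tenascin-C, stood at 0.445 ± 0.198 CPM (63 counts) and 9.98 ± 0.735 CPM. Itgb5, the β5 integrin, fell 1.84-fold.

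Of 18 enzymes known to cleave or crosslink these proteins 16 were tested, 9 higher, 6 lower and 1 not passing (median 0.37; with library totals 7 higher and 7 lower, median -0.01). In this comparison TMM scaling called 36.1% of the whole gene set up and 35.8% down, around a median of 0.004. Scaling by totals alone called 20.3% up and 58.1% down, around -0.38. The enzyme median of -0.01 thus lay above that of the whole set. Mmp3, stromelysin-1, stood at 21540 ± 547 CPM in IFNγ/LPS CM and 1114 ± 15.0 CPM in naive CM, and Mmp13, a collagenase, at 244 ± 15.0 and 5.46 ± 0.673 CPM. Mmp12, macrophage elastase, stood at 5.27 ± 0.995 CPM in IFNγ/LPS CM and had 13 counts over the 4 naive CM libraries. The plasminogen activators Plat and Plau fell 2.97-fold and 2.19-fold, and Htra1, a serine protease, fell 2.74-fold.

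The TGF-β list was nearly even: of the 16 genes counted, 6 were higher, 7 lower and 3 did not pass (median -0.08; with library totals 6 higher and 9 lower, median -0.46, where all genes had -0.38). The shares of the whole gene set given beside the enzymes apply here too. The ligands Tgfb3 and Tgfb2 fell 5.82-fold and 5.11-fold, to 28.9 ± 1.45 and 16.5 ± 1.16 CPM in IFNγ/LPS CM, and the receptor Tgfbr2 fell 2.02-fold. Ltbp2, a latent TGF-β binding protein family member, stood at 75.1 ± 2.88 CPM in IFNγ/LPS CM and 1.27 ± 0.482 CPM in naive CM (55.9-fold higher). The coreceptor Tgfbr3 rose 2.28-fold.

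**Figure D4:**
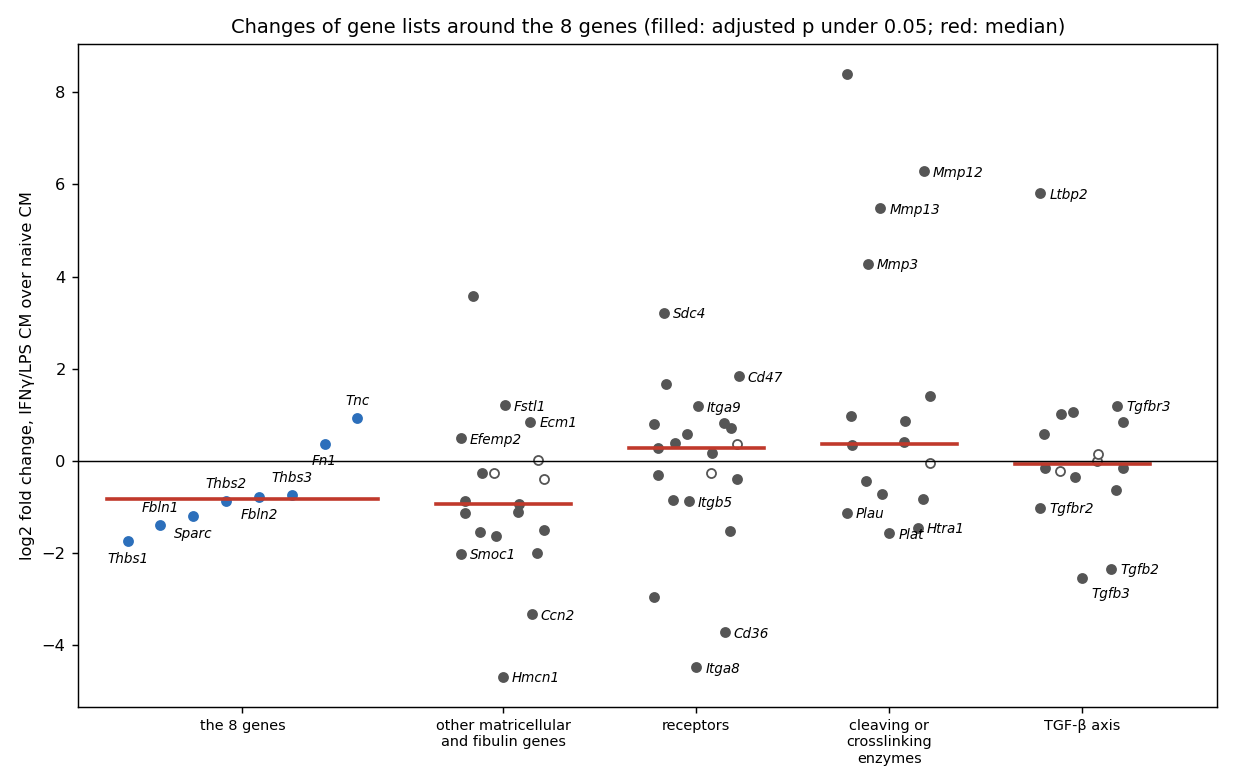
Log2 fold change of IFNγ/LPS CM over naive CM for the 8 genes and the tested genes counted in 4 surrounding lists (points, filled where the edgeR adjusted p was under 0.05), with the median of each list in red. The 8 genes span -1.74 to 0.93, a narrower range than the lists; the unlabelled highest point is Ctss at 8.40, which had no count in naive CM, so its height depends on the fit and is no measured size.

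Among 9372 genes with a symbol and a mean of at least 10 CPM, the genes whose centred log2 CPM came nearest to each member over the 12 libraries were named, with the root mean square difference on the log2 scale. For Thbs1 they were Chd3, a chromatin remodeller (0.0466), and Mras, a small GTPase (0.0712), and for Thbs2 Acadm, a fatty acid oxidation enzyme (0.0643), and Sntb2, a syntrophin (0.0766). For Thbs3 they were Rfc2 (0.0754) and Pcna (0.0896), and for Fbln1 Rfc5 (0.0978) and Lig1 (0.0993), all 4 of which encode DNA replication proteins. For Sparc they were Tef (0.0550), a transcription factor, and Tcaf1 (0.0556), for Fbln2 Vav2 (0.0536), a guanine nucleotide exchange factor, and Dhrs4 (0.0540), and for Fn1 Ep300 (0.0743), a histone acetyltransferase, and Alg2 (0.0864), a glycosylation enzyme. Tnc had no near neighbour: its nearest were Gpnmb (0.190), a membrane glycoprotein, and Ghr (0.192), the growth hormone receptor. The 12 libraries form only 3 groups, and whether any of these genes are linked to the members was not tested.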

How the data were processed

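The 12 RNA libraries were analysed from 1 deposited table of estimated counts (expected counts) per gene, deposited as whole numbers; per the submitters' processing notes they were made with Salmon 1.10.1 and the mm10 build. The summing to genes, the rounding, the strand setting and the gene models were not given in the sources used here. Per the labels' protocols, stranded poly(A) libraries were read in pairs. Symbols came from GENCODE M21 by identifier without version, for 51344 of 55822 identifiers.

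Columns were joined to sample titles by name and number. In R 4.3.3, genes were filtered with edgeR 4.0.16 (filterByExpr, 16140 kept), scaled by TMM and tested two-sided by robust quasi-likelihood F-tests in 1 model with all 12 libraries; p-values were Benjamini-Hochberg adjusted over all genes. The approximate SE divides the log2 fold change by the square root of F. Ratios of counts were compared by exact permutation. The test was checked on simulated counts in which few genes changed, so that check does not bear on the choice of scaling. Same-numbered libraries were treated as unpaired (correlation of deviations over all genes tested -0.0637 to 0.0679, threshold 0.1). Such a correlation cannot exclude a pairing that affects single genes. Alternatives were other scalings, filters and tests (DESeq2 1.42.0, limma-voom 3.58.1), only 2 groups, a replicate block and each library left out.

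The members, lists and tests were chosen with earlier results of these data known. All members are named; of each list, up to 3 genes that rose and 3 that fell most in IFNγ/LPS CM against naive CM, past the test, without overlap and averaging at least 5 CPM where higher; and the 2 genes nearest each member. Mtx1 (an overlapping gene), Ctss, Spp1, Smoc2, Fbln5 and the marker genes fall outside this rule. Of the TGF-β list, 1 gene is not reported here; it is left out of the counts and was not replaced.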

Additional observations from a re-analysis of the deposited data

Results flagged for a closer look

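Of 33 sets of 4 libraries searched (the 8 genes and 3 ratios in each group), 1 held a library far from the others, where chance flags about 1 in 20. Fbln1 in regular medium stood at 4.71 CPM in replicate 2, against 5.62, 5.54 and 5.68 CPM in the other libraries. Without that library the log2 fold change of Fbln1 was 0.88 for naive CM against regular medium and -0.51 for IFNγ/LPS CM against regular medium, and both calls stayed.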

How the results depend on the processing

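Over 20 alternatives in each of 3 comparisons, 459 values of the 8 genes kept their direction and their side of the threshold, 15 lost their call, 2 gained one and 4 changed sign. Of the 4, 2 are Thbs3 in IFNγ/LPS CM against regular medium, which was not called and lay near 0 without IFNγ/LPS CM replicate 2 (-0.00035) or regular medium replicate 3 (-0.0013); its range without 1 library was -0.0013 to 0.082. Thbs2 in naive CM against regular medium lost its call in 15 of 20: without a filter (-0.18, adjusted p = 0.0926), with library totals (-0.19, adjusted p = 0.0594), limma-voom (-0.19, adjusted p = 0.0598), only the 2 groups (-0.17, adjusted p = 0.0692), the replicate block (-0.19, adjusted p = 0.0782), and 10 of the 12 fits without 1 library (-0.24 to -0.14 over the 12). The cause was not tested. The other changes came with library totals, which moved the median of all genes from 0.004 to -0.38 against naive CM and from -0.03 to -0.41 against regular medium. Fn1 against naive CM turned to -0.015 (adjusted p = 0.911). Against regular medium, Fn1 (-0.45), Thbs3 (-0.35) and Tnc (-0.53) became lower, so that 8 members passed in place of 5, where 79.8% of all genes passed in place of 71.8%. The replicate block changed no other call of the members. Without 1 library, the differences in log2 ratio, with exact tests of 3 against 4 libraries added after seeing the data (smallest p = 0.0286), were as follows. For Thbs1/Thbs2 they were -0.91 to -0.86 for IFNγ/LPS CM against naive CM (call lost in 3 of 8 fits), 0.21 to 0.32 for naive CM against regular medium (lost in 8) and -0.67 to -0.56 for IFNγ/LPS CM against regular medium (lost in 4). For Fbln2/Fbln1 they were 0.56 to 0.67 (lost in 3), -0.81 to -0.73 (lost in 7) and -0.21 to -0.10 (not called) in the same order. For Tnc/Fn1 they were 0.46 to 0.71 (gained in 1), -0.78 to -0.53 (lost in 7) and -0.14 to 0.0155 (not called; the sign changed in 1, without IFNγ/LPS CM replicate 4). Depth limits Thbs3 (from 89 counts), Fbln1 (from 129) and Tnc (from 172) most.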

Other observations

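Naive CM against regular medium also moved genes around the 8 members, named here after their values were seen. Spp1, which encodes osteopontin, a matricellular ligand of integrins, stood at 94.3 ± 8.84 CPM in naive CM and 21.1 ± 4.31 CPM in regular medium (SD, n = 4 each; 4.50-fold higher, edgeR adjusted p = 1.06e-06). In IFNγ/LPS CM it stood at 43.2 ± 4.25 CPM, also above regular medium (2.06-fold, adjusted p = 6.48e-05). Smoc2, a relative of Sparc, fell 3.65-fold to 29.2 ± 3.52 CPM in naive CM, against 107 ± 5.45 CPM in regular medium. Fbln5, a short fibulin that binds elastin, fell 1.71-fold to 713 ± 17.0 CPM in naive CM, against 1219 ± 59.3 CPM in regular medium, and stood at 231 ± 7.17 CPM in IFNγ/LPS CM (5.28-fold below regular medium). Of the 19 tested genes of that list 6 were higher, 6 lower and 7 did not pass in naive CM against regular medium, where 18.3% of all genes were higher and 16.4% lower.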
